A study of Mus musculus with 32 samples.

Results

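The genes described here are 40 genes of the cell division cycle, followed through every cell class of mouse epididymal fat that the data could resolve. They are a list chosen by gene symbol, 40 of the 31053 genes counted, and no threshold on a measured value entered the rule. Within the list, 24 genes act in G2 and mitosis, 14 act at the G1 to S transition or in DNA replication, and 2 (Ccnd1 and Cdkn1a) control progress through G1. All 40 symbols were found and all had UMIs, from 260 UMIs for Ccne2 to 95385 for Cdkn1a over all cells kept. A UMI, a unique molecular identifier, marks a single captured RNA molecule, so UMI counts are counts of molecules.

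A cell that is to divide first passes through G1, where D-type cyclins such as cyclin D1 drive the kinases CDK4 and CDK6 and where p21, the product of Cdkn1a, holds cyclin-dependent kinases back. E2F factors then switch on the S phase genes, among them the MCM helicase subunits, the sliding clamp PCNA, the enzymes that make DNA precursors and the E-type cyclins. In G2 a further wave follows, in which cyclin B and CDK1 start mitosis, Aurora and Polo kinases and kinesins build the spindle, centromere proteins hold it, and the ubiquitin system with CDC20 and UBE2C ends it. Resting cells keep the mitotic wave off. In fat, stromal progenitors and immune cells are known to divide, while mature adipocytes rarely do.

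The cells were the stromal vascular fraction, the cells of fat other than adipocytes, of C57BL/6 mice kept for 16 weeks on a high fat or a normal diet. In each diet a library labelled CD169-DTR was set against a library labelled WT, and mice of both labels received diphtheria toxin (DT) for 7 days. In the CD169-DTR strain the receptor for that toxin is driven by the gene of CD169 (Siglec1), a lectin of tissue macrophages, which makes those macrophages the intended target. CD45+ and CD45- cells were sorted apart, most F4/80hi and Ly6Chi cells were gated out, and the sorted pools were mixed in equal parts before droplet capture (10x Genomics 3′ chemistry). The labels used here give neither the age of the mice nor how many mice made a library.

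Each of the 4 groups was 1 library, so no difference below has a replicate check and none was tested. Intervals are 95% intervals that cover counting error only, and a log2 ratio set after levels in parentheses is followed by its interval. The libraries held between 4014 and 6696 barcodes and between 33390225 and 64766718 UMIs, and 19328 cells remained after filtering, of which 17162 had at least 2000 UMIs. Pairs of libraries shared between 30 and 157 barcode sequences. Siglec1, which the toxin should deplete in mice labelled DTR, had 113 UMIs labelled DTR and 5 labelled WT on normal diet, and 190 against 51 on high fat diet. The targeted gene thus went against the labels in both diets, and every direction below is that of the library so labelled. Which barcodes belong to which label was read from the order in which the libraries were aggregated.

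Many of the 40 genes carry in their promoters short elements known to time the cell cycle, and 5 promoters are shown as examples. They were picked from the mitotic and S phase genes with the most UMIs, of which Pcna, Cenpa and Birc5 are not shown. The windows are the 250 bases before the gene start in RefSeq (mouse build GRCm38.p6), written 5′ to 3′ on the strand of the gene. Capitals mark every match on either strand to TTTGAA (the cell cycle homology region, CHR), CCAAT (the CCAAT box) or a form of the E2F site (TTGGCGC, its variant TTGCCGC, the further form TTCGCGC or the form TTCCCGC). Top2a, the topoisomerase that untangles chromosomes, has its window at chr11:99024190-99024439 on the minus strand. The window of Mki67, the Ki-67 coat protein of mitotic chromosomes, is chr7:135716380-135716629 on the minus strand, and that of Ube2c, the ubiquitin-conjugating enzyme of the anaphase-promoting complex, is chr2:164769679-164769928 on the plus strand. For the S phase, Mcm6, a subunit of the replicative helicase, has its window at chr1:128359706-128359955 on the minus strand, and Rrm1, the large subunit of ribonucleotide reductase, at chr7:102441445-102441694 on the plus strand.
Top2a: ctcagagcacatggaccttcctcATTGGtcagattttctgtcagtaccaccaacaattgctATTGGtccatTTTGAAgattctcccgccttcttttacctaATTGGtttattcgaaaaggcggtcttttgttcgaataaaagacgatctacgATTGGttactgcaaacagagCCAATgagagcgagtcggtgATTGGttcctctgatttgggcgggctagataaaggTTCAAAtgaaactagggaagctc
Mki67: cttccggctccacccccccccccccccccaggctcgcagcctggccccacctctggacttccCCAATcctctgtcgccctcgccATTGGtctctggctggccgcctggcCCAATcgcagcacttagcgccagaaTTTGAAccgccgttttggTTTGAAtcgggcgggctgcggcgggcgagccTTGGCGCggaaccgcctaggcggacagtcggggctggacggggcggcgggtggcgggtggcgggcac
Ube2c: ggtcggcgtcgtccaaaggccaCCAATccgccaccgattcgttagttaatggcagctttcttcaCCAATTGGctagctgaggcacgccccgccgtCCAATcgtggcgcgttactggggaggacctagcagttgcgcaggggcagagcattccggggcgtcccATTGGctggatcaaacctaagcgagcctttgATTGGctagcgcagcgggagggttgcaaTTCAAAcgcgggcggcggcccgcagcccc
Mcm6: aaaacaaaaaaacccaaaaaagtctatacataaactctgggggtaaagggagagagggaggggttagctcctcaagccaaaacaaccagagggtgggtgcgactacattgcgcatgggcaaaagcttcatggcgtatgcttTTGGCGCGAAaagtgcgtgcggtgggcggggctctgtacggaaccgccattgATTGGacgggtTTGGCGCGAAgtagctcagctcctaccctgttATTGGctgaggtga
Rrm1: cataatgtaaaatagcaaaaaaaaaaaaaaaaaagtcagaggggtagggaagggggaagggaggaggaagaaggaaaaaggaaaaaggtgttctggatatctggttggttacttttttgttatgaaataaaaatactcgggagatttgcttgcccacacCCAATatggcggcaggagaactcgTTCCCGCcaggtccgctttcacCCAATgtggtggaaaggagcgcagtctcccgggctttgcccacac

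Top2a held 2 CHR and 6 CCAAT matches, Mki67 held 2 and 3 beside 1 E2F match, and Ube2c held 1 and 6, of which a pair overlaps on opposite strands. Mcm6 held 4 E2F matches, in overlapping pairs, and 2 CCAAT matches, and Rrm1 held 1 and 2. Of the genes not shown, Pcna held 1 CCAAT match and no E2F match, and Cenpa held 2 CCAAT matches and no CHR match. Birc5 held no match of any kind. The RefSeq table matched 21 of the 24 mitotic and 11 of the 14 S phase genes. For these genes the promoter nearest the annotated gene start was taken, and for the count of all promoters the first listed of each gene. A CCAAT box was found in 19 of 21 mitotic promoters (90.5%) and 8 of 11 S phase promoters (72.7%), against 34.5% of the 27025 promoters of that table. The CHR letters stood in 7 of 21 mitotic promoters (33.3%), each with a CCAAT box, in 1 of 11 S phase promoters (9.09%) and in 16.3% of all promoters. The E2F letters ran the other way, in 3 of 21 mitotic promoters (14.3%) and 6 of 11 S phase promoters (54.5%), beside 7.97% of all. A match describes the sequence and no binding. The median GC content of the windows was 59.6% for mitotic, 56.8% for S phase and 52% for all promoters.

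RNA of the mitotic genes was missing from most cells and came together in few. Of the 19328 cells, 12440 had no UMI of any of the 24 mitotic genes, 645 had UMIs of at least 10 of them, 222 of at least 20, and 50 of all 24. To see where each gene's molecules lay, cells were picked by UMIs of at least 5 mitotic genes other than the gene in question, for Mki67 4.54% of cells with 10.3% of all UMIs. Such cells held 96.3% (95.3 to 97.1) of the UMIs of Ccna2, cyclin A2, 96% (95.1 to 96.8) of Cenpf, a kinetochore protein, and 95.4% (94.8 to 95.9) of Ube2c. The median over the 24 mitotic genes was 88.5%, and the lowest was 46.5% (45.4 to 47.6) for Cenpa, the centromeric histone H3 variant.

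S phase genes were less concentrated and the G1 genes least. Such cells held a median of 49.7% of the UMIs of the 14 S phase genes. Rrm2, the small subunit of ribonucleotide reductase, stood at 86.3% (84.9 to 87.6), next to the mitotic genes. At the low end were Pcna at 30.1% (29.2 to 31.1) and Mcm4, another helicase subunit, at 30.1% (28.4 to 31.9). Most molecules of these replication genes therefore lay in cells with few or no mitotic transcripts. Ccnd1 had 20.2% (19.3 to 21.1) and Cdkn1a 12.8% (12.6 to 13) of their UMIs there. The median over the S phase genes was 76.2% in macrophage-like cells, where such cells held 34.4% of all UMIs. It was 55.2% in NK-like cells beside 15.8% of all UMIs, 31.1% in fibroblast and progenitor-like cells beside 3.47%, and 2.11% in vascular endothelial-like cells beside 0.655%. Since these shares of all UMIs run in the same order, no order of the classes is read from the medians.

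**Figure D1:**
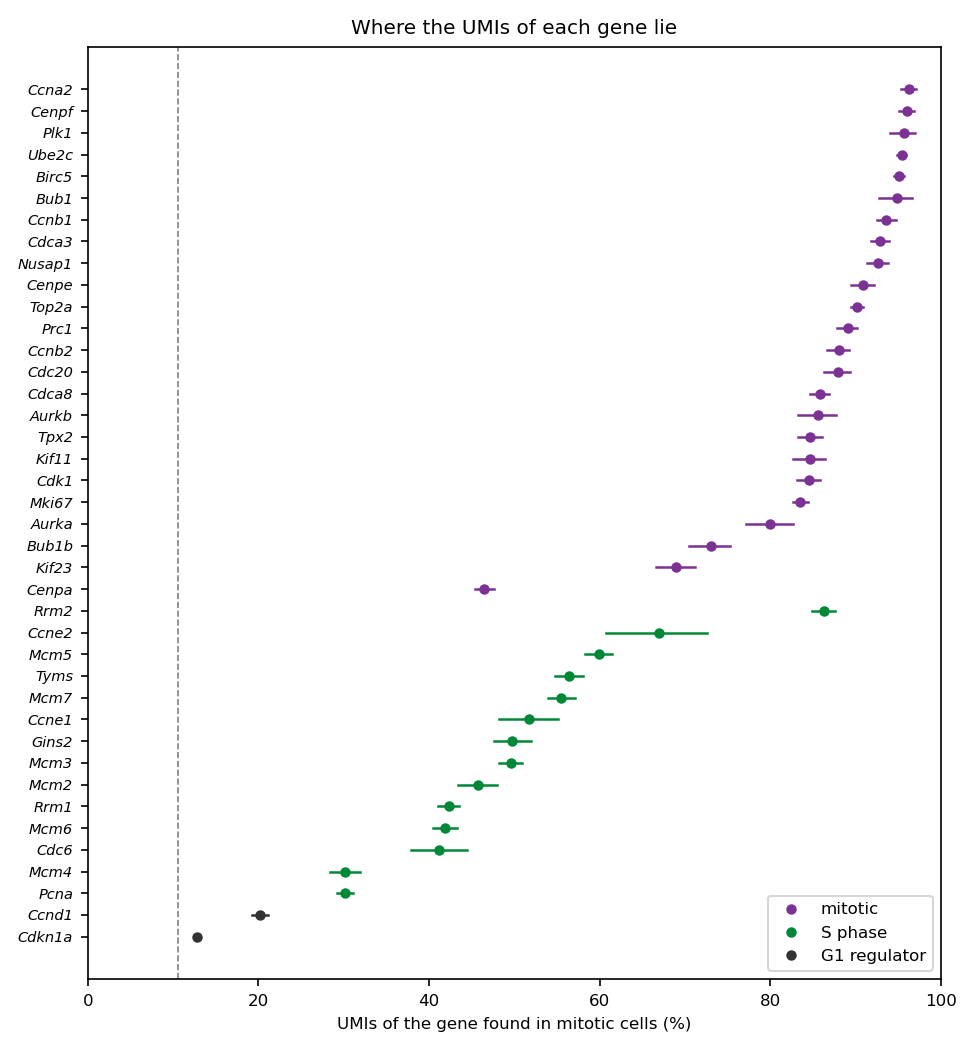
Share of each gene's UMIs, in percent, that lay in cells with UMIs of at least 5 mitotic genes other than the gene itself, over all cells, with 1 point per gene and 95% counting intervals as bars. The dashed line gives the share of all UMIs in such cells. Mitotic genes have a median of 88.5%, S phase genes spread from 30.1% to 86.3%, and Ccnd1 and Cdkn1a are lowest.

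Cells were then called cycling one by one. Each cell was thinned at random to 2000 UMIs so that deep and shallow cells were read alike, and it was called mitotic with UMIs of at least 3 of the 24 mitotic genes, S phase with UMIs of at least 4 of the 14 S phase genes, and cycling with either. Such a call is a range of a score and not a cell type: 227 cells were 1 mitotic gene short of the limit, 103 were on it and 539 were above it. Over all cells 7.17% (6.47 to 7.93) were cycling with the label DTR and 3.76% (3.23 to 4.35) with the label WT on high fat diet, and 3.44% (2.84 to 4.13) and 2.72% (2.26 to 3.25) on normal diet. As a level in cells with few mitotic genes, group 2 innate lymphoid-like cells had 1 of 171 cycling cells labelled WT on normal diet (0.585%, median depth 3851 UMIs) and none in the other 3 libraries, the largest of which, 0 of 81 labelled WT on high fat diet, allows up to 3.7%, which is 3 counts of the total.

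The share of cycling cells differed widely between classes. It over the 4 libraries lay between 7.14% and 16% in macrophage-like cells, 6.6% and 15.8% in type 1 dendritic-like cells, 3.63% and 21.4% in NK-like cells, and 3.88% and 9.46% in T-like cells. Fibroblast and progenitor-like cells lay between 0.197% and 3.17%. Vascular endothelial-like and B-like cells had at most 3 cycling cells in a library. Plasma-like cells, with under 50 cells in each library, had 2 or 3.

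**Figure D2:**
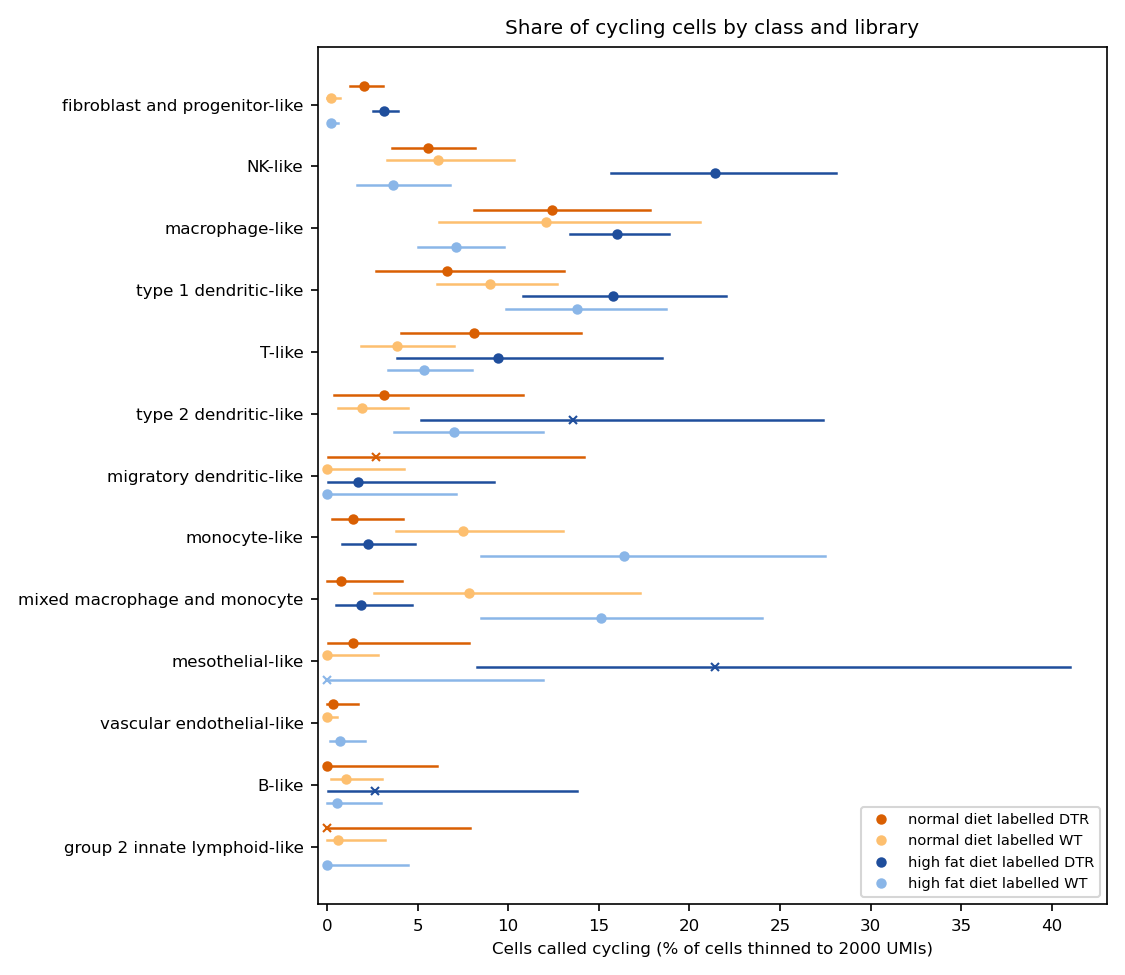
Share of cycling cells in percent for each cell class after thinning every cell to 2000 UMIs, with labelled DTR placed before labelled WT within each diet and 95% counting intervals as bars. Crosses mark groups of under 50 cells, and groups under 20 cells are not drawn. The libraries of a diet stand far apart in fibroblast and progenitor-like cells (2.06% against 0.197% on normal, 3.17% against 0.237% on high fat diet) and in NK-like cells on high fat diet (21.4% against 3.63%).

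Classes were counted with at least 50 cells in both libraries and a cycling cell in at least 1 of them. The share of cycling cells was higher with the label DTR in 6 of 11 classes on normal diet and in 6 of 8 on high fat diet. The interval of the log2 ratio lay above 0 for 1 class and below 0 for 2 classes on normal diet, and for 3 and 2 classes on high fat diet. High fat against normal diet gave a higher share in 7 of 7 classes in the libraries labelled DTR, with 2 intervals above 0, and in 7 of 11 in the libraries labelled WT, with 1 interval above 0. These 4 comparisons share libraries in pairs and are not independent of each other.

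Fibroblast and progenitor-like cells carried more mitotic transcripts in both libraries labelled DTR than in those labelled WT. On normal diet 22 of 1070 cells were cycling in the library labelled DTR, 2.06% (1.29 to 3.1), and 2 of 1014 in the library labelled WT, 0.197% (0.0239 to 0.711), a 10.4-fold difference. On high fat diet the counts were 86 of 2711 cells labelled DTR, 3.17% (2.55 to 3.9), and 4 of 1691 cells labelled WT, 0.237% (0.0645 to 0.605), a 13.4-fold difference. The log2 ratio of the shares was thus well above 0 in both diets (3.38, 1.36 to 6.51 on normal and 3.75, 2.34 to 5.65 on high fat diet). Read without thinning, 5.7% of cells labelled DTR and 2.16% of those labelled WT passed the same limits on normal diet, and 13.5% and 2.47% on high fat diet. In pooled cells, more cycling cells and more RNA per cycling cell cannot be told apart from a summed level.

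Summed over the 24 mitotic genes, the level on normal diet was 241 CPM (UMIs per 1000000 UMIs of the class in that library) with the label DTR and 33.6 CPM with the label WT, a log2 ratio of 2.84 (2.68 to 3.00). Under high fat diet it was 275 CPM and 29 CPM, 3.24 (3.12 to 3.37). At least 2-fold higher with the label DTR were 23 of 24 mitotic genes on normal diet, where 8.03% of all genes with at least 20 UMIs passed that fold upward, and 24 of 24 on high fat diet, where 18.2% did. The median log2 ratio over the list was 3.00 beside 0.10 for all genes on normal diet, and 3.31 beside 0.32 on high fat diet.

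Cyclin B and the Polo kinase show how little mitotic RNA the libraries labelled WT held. Ccnb1, cyclin B1, had 139 UMIs labelled DTR and 1 labelled WT on normal diet (log2 ratio 6.64, 4.14 to 11.95), and 499 and 16 on high fat diet (3.99, 3.28 to 4.81). Plk1, the Polo kinase that promotes entry into mitosis, had 64 and 4 UMIs on normal diet (3.52, 2.10 to 5.44) and 249 and 4 on high fat diet (4.99, 3.61 to 6.88). Both genes were close to absent from the fibroblast and progenitor-like cells labelled WT. Cdk1, the kinase that cyclin B activates, had 14.5 CPM labelled DTR and 1.36 CPM labelled WT on normal diet and 17.9 and 1.82 CPM on high fat diet.

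The mitotic genes whose promoters are shown above followed the same order. Mki67 stood at 21.2 CPM labelled DTR and 3.97 CPM labelled WT on normal diet (2.42, 1.94 to 2.92) and at 19.3 and 2.27 CPM on high fat diet (3.09, 2.66 to 3.55). For Top2a the levels were 24.6 and 3.49 CPM, then 22.5 and 3.01 CPM. Ube2c had 22.6 and 2.04 CPM on normal diet (3.47, 2.84 to 4.19) and 19 and 1.28 CPM on high fat diet (3.89, 3.32 to 4.51). For each of these 3 genes both libraries labelled DTR were above both libraries labelled WT.

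Spindle genes differed over a wide range. Prc1, which bundles microtubules of the central spindle, had log2 ratios of 3.68 on normal and 4.18 on high fat diet. Cdc20, the activator of the anaphase-promoting complex, had 3.26 and 4.15, and Kif23, a kinesin of cytokinesis, 3.98 and 3.76. The smallest differences in both diets were those of Kif11, the kinesin that pushes spindle poles apart, at 0.88 (0.24 to 1.57) on normal and 1.78 (1.24 to 2.37) on high fat diet.

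**Figure D3:**
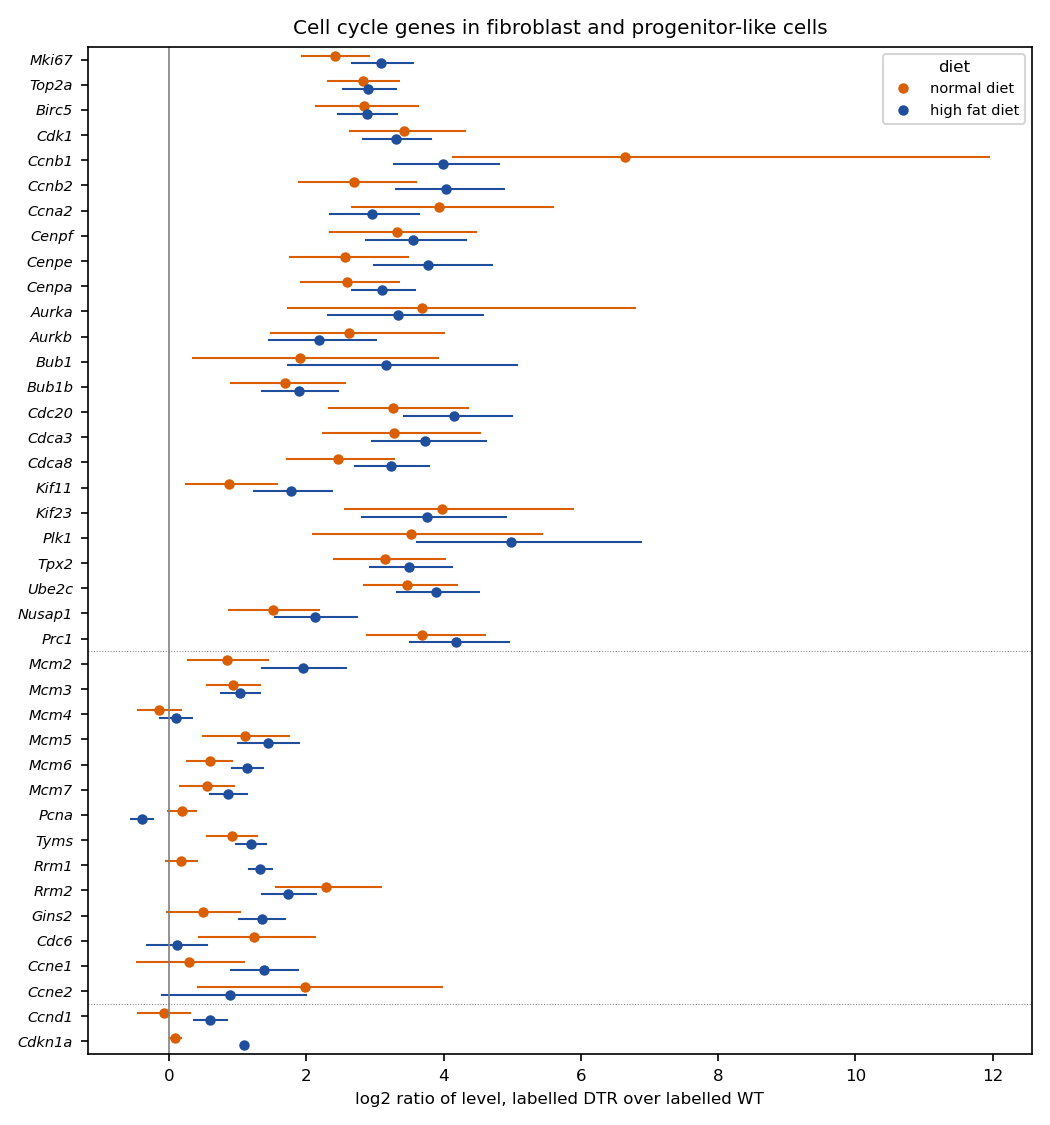
Log2 ratio of each of the 40 genes in fibroblast and progenitor-like cells, labelled DTR over labelled WT, on normal and high fat diet with 95% counting intervals. Open symbols mark under 20 UMIs over both libraries, and dotted lines part the mitotic, S phase and G1 genes. All 24 mitotic genes lie above 0 in both diets, from 0.88 (Kif11) to 6.64 (Ccnb1) on normal diet, while Pcna lies at -0.40 on high fat diet.

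S phase genes differed less in these cells. The list summed to 174 CPM labelled DTR and 125 CPM labelled WT on normal diet, a log2 ratio of 0.48 (0.38 to 0.58), and to 192 and 106 CPM on high fat diet, 0.86 (0.79 to 0.93). At least 2-fold higher were 4 of 14 genes on normal diet, beside 8.03% of all genes, and 9 of 14 on high fat diet, beside 18.2%. Rrm2 had 122 UMIs labelled DTR and 18 labelled WT on normal diet (2.28, 1.56 to 3.09) and 410 and 63 on high fat diet (1.73, 1.35 to 2.14). Mcm2, a helicase subunit, led on high fat diet at 1.95 (1.36 to 2.58), and Rrm1 had 1.33 there and 0.17 on normal diet. Pcna, in contrast, had 35.3 CPM labelled DTR and 31 CPM labelled WT on normal diet (0.19, -0.02 to 0.39) and 19.3 and 25.5 CPM on high fat diet (-0.40, -0.56 to -0.24). Mcm4 had -0.14 (-0.45 to 0.18) and 0.10 (-0.13 to 0.33). Scaled by TMM, which centres the bulk of genes, these log2 ratios are lower by 0.10 on normal and 0.32 on high fat diet.

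Cell by cell, the fibroblast and progenitor-like cells called mitotic also held more S phase RNA. In the library labelled DTR on high fat diet, 77 mitotic cells were set against 2625 other cells, those called neither mitotic nor S phase. Cells rich in S phase RNA were thus left out of the other side alone, which widens the contrast of these genes. At least 2-fold higher in the mitotic cells were 14 of 14 S phase genes, beside 12.7% of all genes. Rrm2 stood at 119 against 4.62 CPM (log2 ratio 4.68, 4.38 to 4.99), Mcm5 at 66.4 against 3.54 CPM (4.23, 3.85 to 4.61) and Pcna at 68.9 against 16.8 CPM (2.04, 1.73 to 2.33). Even Pcna, which was not higher with the label DTR on high fat diet, was thus higher in mitotic cells. Cdkn1a, the G1 inhibitor, stood at 774 against 574 CPM on high fat diet (0.43, 0.35 to 0.51), and at 422 against 227 CPM in the 17 mitotic against the other cells on normal diet (0.89, 0.68 to 1.10).

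The mitotic fibroblast and progenitor-like cells held the markers of their class and had more RNA. The class was gated on these markers, so their presence is set by the gate and is no check of the class. In the libraries labelled DTR, the summed fibroblast markers stood at 23124 against 36038 CPM in mitotic cells against all cells not called mitotic on normal diet, and at 32986 against 43044 CPM on high fat diet. Macrophage markers stood at 32.3 against 23.6 CPM with 2 of 9 markers at 0 in the mitotic cells on normal diet, and at 70.8 against 32.9 CPM with 0 of 9 at 0 on high fat diet. Macrophage markers were thus a small part of the RNA of the mitotic cells, a part that the margin of the gate over other classes limits. NK markers stood at 2.15 against 8.23 CPM on normal diet, with 5 of 6 at 0 in the mitotic cells, and at 13.7 against 2.31 CPM on high fat diet, with 2 of 6 at 0. T markers stood at 0 against 2.16 CPM with 6 of 6 at 0, and at 4.97 against 3.31 CPM with 5 of 6 at 0. Vascular endothelial markers stood at 4.31 against 22 CPM with 6 of 8 at 0, and at 49 against 55.7 CPM with 3 of 8 at 0. Macrophage markers were thus higher in the mitotic cells in both diets, from 15 UMIs in those cells on normal diet. NK and T markers were higher there on high fat diet, and the part of these markers in the results was not tested. Against cells called neither mitotic nor S phase, the median depth was 22916 against 12356 UMIs on normal diet. On high fat diet it was 20815 against 13016 UMIs. The median doublet score was 0.105 against 0.0358 and 0.0756 against 0.0431, and its part in the calls was not tested.

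By diet, the same cells differed less than by label. High fat against normal diet gave 3.17% against 2.06% cycling cells in the libraries labelled DTR, a log2 ratio of 0.63 (-0.06 to 1.37), and 0.237% against 0.197% in those labelled WT, 0.26 (-2.54 to 3.73). The summed mitotic level had log2 ratios of 0.19 (0.14 to 0.25) labelled DTR and -0.21 (-0.41 to -0.02) labelled WT. With the label DTR 0 of 24 mitotic genes passed 2-fold upward, beside 10.0% of all genes. With the label WT 1 of 19 measured genes passed upward, beside 3.72%, and 1 of 19 downward, beside 5.44%.

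A different scaling changes the size of the difference on normal diet. With equal totals given to all cells before averaging, the median over the mitotic genes was 0.89 in place of 3.00. In the library labelled WT 95 cells had under 2000 UMIs, and 10 of them held 41 of the 347 mitotic UMIs of that class. Averaged over the cells with at least 2000 UMIs, the level was 118 CPM a cell labelled DTR and 19.7 CPM labelled WT on normal diet, and 196 and 20.4 CPM on high fat diet.

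NK-like cells had a high mitotic level in a single library, that labelled DTR on high fat diet. There 39 of 182 cells were cycling, 21.4% (15.7 to 28.1), against 9 of 248 cells labelled WT, 3.63% (1.67 to 6.78), a 5.9-fold difference and a log2 ratio of 2.56 (1.49 to 3.79). On normal diet 24 of 431 cells labelled DTR, 5.57%, and 13 of 212 labelled WT, 6.13%, were cycling, a log2 ratio of -0.14 (-1.17 to 0.96). High fat against normal diet gave 1.94 (1.17 to 2.74) in the libraries labelled DTR and -0.76 (-2.16 to 0.58) in those labelled WT. Without thinning the diet ratio labelled DTR was 0.88, from 20.6% and 11.2% of cells.

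The summed mitotic level in NK-like cells was 1983 CPM labelled DTR and 571 CPM labelled WT on high fat diet, a log2 ratio of 1.80 (1.66 to 1.94), and 662 and 997 CPM on normal diet, -0.59 (-0.71 to -0.47). With high fat diet 20 of 23 measured mitotic genes were at least 2-fold higher, beside 8.88% of all genes. On normal diet 6 of 20 measured were at least 2-fold lower, beside 1.33% of all genes. The direction of the summed level with the label thus differed between the diets, which could not be tested with 1 library a group. The interval of a level counts UMIs and not the few cells that hold most of them. For the share of cycling cells on normal diet, the interval given above spanned both directions.

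Ube2c had 212 CPM labelled DTR and 30.5 CPM labelled WT on high fat diet (2.80, 2.24 to 3.40), and 31.4 and 107 CPM on normal diet (-1.77, -2.24 to -1.31). Mki67 had 190 and 39.7 CPM on high fat diet (2.26, 1.76 to 2.80) and 84 and 95.6 CPM on normal diet (-0.19, -0.56 to 0.20). Cenpf stood at 97.8 and 19.3 CPM on high fat and at 15.5 and 43.5 CPM on normal diet. For these 3 genes the library labelled DTR on high fat diet was the highest of the 4. Birc5, survivin of the chromosomal passenger complex, likewise had 164 and 40.7 CPM on high fat and 47.8 and 97.7 CPM on normal diet.

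**Figure D4:**
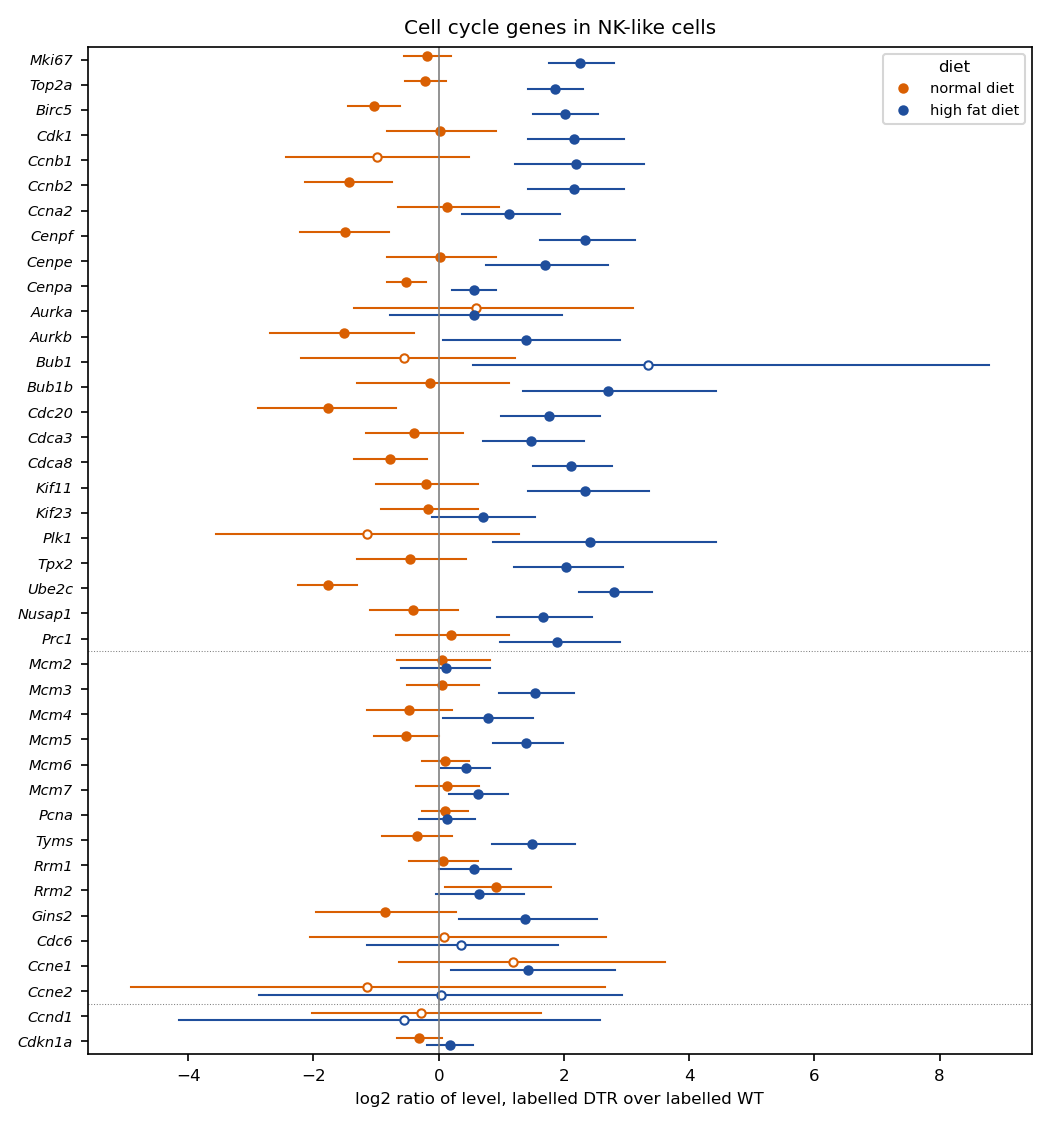
Log2 ratio of each of the 40 genes in NK-like cells, labelled DTR over labelled WT, on normal and high fat diet with 95% counting intervals, where open symbols mark under 20 UMIs over both libraries. On high fat diet the measured mitotic genes run from 0.56 to 2.80, and on normal diet from -1.77 to 0.19.

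S phase genes of NK-like cells summed to 880 CPM labelled DTR and 523 CPM labelled WT on high fat diet, 0.75 (0.59 to 0.91), and to 517 and 519 CPM on normal diet, -0.01 (-0.16 to 0.15). Among them 5 of 12 measured genes passed 2-fold on high fat diet, beside 8.88% of all genes, led by Mcm3 at 1.54 (0.96 to 2.16) and Tyms, thymidylate synthase, at 1.49 (0.85 to 2.17). Pcna had 92.6 and 84.5 CPM (0.13, -0.32 to 0.58). In the library labelled DTR on high fat diet, the 32 mitotic cells were set against all cells not called mitotic. The summed NK markers stood at 4371 against 5264 CPM and fibroblast markers at 330 against 450 CPM. T markers stood at 327 against 396 CPM and macrophage markers at 16.7 against 104 CPM. NK markers were thus above those of the other lists on both sides. The class was gated on these markers, so that order is largely set by the gate and is no check of the class.

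Macrophage-like cells cycled in all 4 libraries. On high fat diet 113 of 705 cells labelled DTR, 16% (13.4 to 18.9), and 35 of 490 labelled WT, 7.14% (5.03 to 9.79), were cycling, a log2 ratio of 1.17 (0.61 to 1.76). On normal diet the counts were 24 of 194 cells, 12.4%, and 11 of 91 cells, 12.1%, 0.03 (-1.05 to 1.21). The S phase call was made in 7.09% (5.31 to 9.24) of cells labelled DTR and 2.24% (1.13 to 3.98) of cells labelled WT on high fat diet. Of 199 macrophage-like cells labelled DTR on normal diet 5 had under 2000 UMIs and were not read, and of 158 labelled WT 67.

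On high fat diet the mitotic level of macrophage-like cells differed less by label than the share of cycling cells, and on normal diet it did not. It summed to 919 CPM labelled DTR and 830 CPM labelled WT on high fat diet, a log2 ratio of 0.15 (0.10 to 0.19), and to 1075 and 853 CPM on normal diet, 0.33 (0.23 to 0.44), where the median ratio of all genes was 0.27 and 0.26. Under high fat diet 0 of 24 genes passed 2-fold upward, beside 14.3% of all genes, and on normal diet 5 of 24, beside 15.6%. Ube2c had 62.4 and 101 CPM on high fat diet (-0.70, -0.85 to -0.55) and 137 and 62.3 CPM on normal diet (1.14, 0.76 to 1.54). Under TMM scaling the median of the mitotic genes on high fat diet was -0.07 in place of 0.19. On normal diet a stricter marker gate gave -0.74 and cells scaled to the same total -0.36, in place of 0.36, so these small mitotic differences have no firm direction.

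S phase genes were higher with the label DTR in macrophage-like cells on high fat diet. They summed to 625 and 365 CPM, a log2 ratio of 0.77 (0.71 to 0.84), and 7 of 14 were at least 2-fold higher, beside 14.3% of all genes. The median ratio of all genes there was 0.27, and TMM scaling lowers each log2 ratio by 0.26. Cdc6, which loads the MCM helicase, had 11.8 CPM labelled DTR and 2.7 CPM labelled WT (2.13, 1.45 to 2.89). Ccne1, cyclin E1, had 11.3 and 2.7 CPM (2.07, 1.38 to 2.82), and Rrm2 53.9 and 14 CPM (1.94, 1.64 to 2.26). Pcna was even at 92.2 and 90.9 CPM (0.02, -0.12 to 0.16). On normal diet the sum was 480 and 389 CPM, 0.30 (0.14 to 0.46).

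Monocyte-like cells ran in the opposite direction. On normal diet 3 of 207 cells labelled DTR, 1.45%, and 11 of 147 labelled WT, 7.48%, were cycling, a log2 ratio of -2.37 (-4.85 to -0.45). The high fat diet counts were 6 of 265 cells, 2.26%, and 11 of 67 cells, 16.4%, -2.86 (-4.58 to -1.30). The mitotic genes summed to 272 and 651 CPM on normal diet (-1.26, -1.42 to -1.10) and to 291 and 1158 CPM on high fat diet (-1.99, -2.16 to -1.82). At least 2-fold lower with the label DTR were 18 of 20 measured genes on normal diet, beside 9.12% of all genes, and 18 of 21 on high fat diet, beside 7.27%. Few cells were cycling in these libraries, so the genes that passed are not separate observations, and the intervals of the sums count UMIs. Cells that met both the macrophage and the monocyte markers gave 0.752% against 7.81% cycling on normal diet and 1.86% against 15.1% on high fat diet, and with a stricter marker gate their log2 ratio on high fat diet turned to 0.12.

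The monocyte-like class did not hold like cells under both labels. On normal diet its cells had 551 CPM of Chil3, 432 of Ly6c2 and 2085 of Plac8 labelled DTR, against 9.92, 41 and 159 CPM labelled WT, all genes of classical monocytes. Fn1, fibronectin, had 1057 CPM labelled DTR and 5134 CPM labelled WT. When cells were clustered, no cluster took the name monocyte-like, so none of the 742 monocyte-like cells could fall in a cluster of that name. Clusters of 1323 and 853 cells took the name of mixed macrophage and monocyte. Of the macrophage-like cells 55.4% fell in macrophage-like clusters. The sort had gated out most F4/80hi and Ly6Chi cells, and its part in these shares was not tested.

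Pooled, in a choice made after the values were seen, the macrophage-like, monocyte-like and mixed cells differed less by label than the monocyte-like or the mixed cells alone. On normal diet the pooled share differed more than that of the macrophage-like cells alone. Cycling cells were then 5.24% (3.51 to 7.49) labelled DTR and 8.94% (5.97 to 12.7) labelled WT on normal diet, a log2 ratio of -0.77 (-1.59 to 0.05), and 10.4% (8.7 to 12.3) and 9.23% (7.12 to 11.7) on high fat diet, 0.17 (-0.29 to 0.64). The summed mitotic level had log2 ratios of 0.07 (-0.01 to 0.14) on normal and -0.07 (-0.12 to -0.03) on high fat diet. The S phase level on high fat diet was 531 CPM labelled DTR and 403 CPM labelled WT, 0.40 (0.34 to 0.45). High fat against normal diet gave a log2 ratio of cycling shares of 0.99 (0.38 to 1.63) labelled DTR and 0.05 (-0.63 to 0.76) labelled WT.

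Type 1 dendritic-like cells held more mitotic RNA on high fat than on normal diet in the libraries labelled DTR. High fat against normal diet gave 15.8% (28 of 177) against 6.6% (7 of 106) cycling labelled DTR, a log2 ratio of 1.26 (0.03 to 2.70), and 13.8% (36 of 260) against 8.97% (28 of 312) labelled WT, 0.63 (-0.13 to 1.39). The mitotic genes summed to 986 CPM against 410 CPM labelled DTR, 1.26 (1.11 to 1.42), with 20 of 21 measured at least 2-fold higher beside 4.90% of all genes. Labelled WT they summed to 780 against 586 CPM, 0.41 (0.33 to 0.50). Cdc20 was among the most uneven, with 37 against 2 UMIs labelled DTR (3.99, 2.03 to 7.09). Top2a had 112 against 31.9 CPM labelled DTR and 91.8 against 66.6 CPM labelled WT. Over all libraries, cells of this class with UMIs of at least 5 other mitotic genes held a median of 93.9% of the UMIs over the mitotic genes. The genes that passed are thus not separate observations.

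T-like cells had 8.09% cycling labelled DTR (11 of 136) and 3.88% labelled WT (10 of 258) on normal diet, a log2 ratio of 1.06 (-0.31 to 2.45), and 9.46% (7 of 74) and 5.35% (22 of 411) on high fat diet, 0.82 (-0.65 to 2.10). Both intervals hold 0. Of the 265 T-like cells labelled DTR on high fat diet 74 had 2000 UMIs, and without thinning that log2 ratio was -1.62. S phase genes on normal diet summed to 749 CPM labelled DTR and 410 CPM labelled WT (0.87, 0.69 to 1.05), with 4 of 11 measured at least 2-fold higher beside 4.53% of all genes. Rrm2 among them had 92.9 and 16.9 CPM (2.46, 1.74 to 3.22).

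Among the remaining classes the counts were small. In type 2 dendritic-like cells labelled WT 12 of 171 were cycling on high fat and 5 of 258 on normal diet, a log2 ratio of 1.86 (0.25 to 3.71). Mesothelial-like cells had 6 of 28 cycling labelled DTR on high fat diet, 21.4% (8.3 to 41), and 0 of 29 labelled WT, which allows a share of up to 10.3%. Both libraries held under 50 of these cells, so no ratio is given. Vascular endothelial-like cells labelled WT had 3 of 414 cycling on high fat and 0 of 676 on normal diet, which allows up to 0.444%. Their mitotic genes summed to 167 CPM on high fat against 32 CPM on normal diet, and 7 of 9 measured genes passed 2-fold, beside 2.29% of all genes. Over all libraries, cells with UMIs of at least 5 other mitotic genes were 0.238% of this class. They held a median of 61.9% of the UMIs over the mitotic genes, so the genes that passed are not separate observations. Labelled DTR, 16 vascular endothelial-like cells were found on high fat diet, too few to read.

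**Figure D5:**
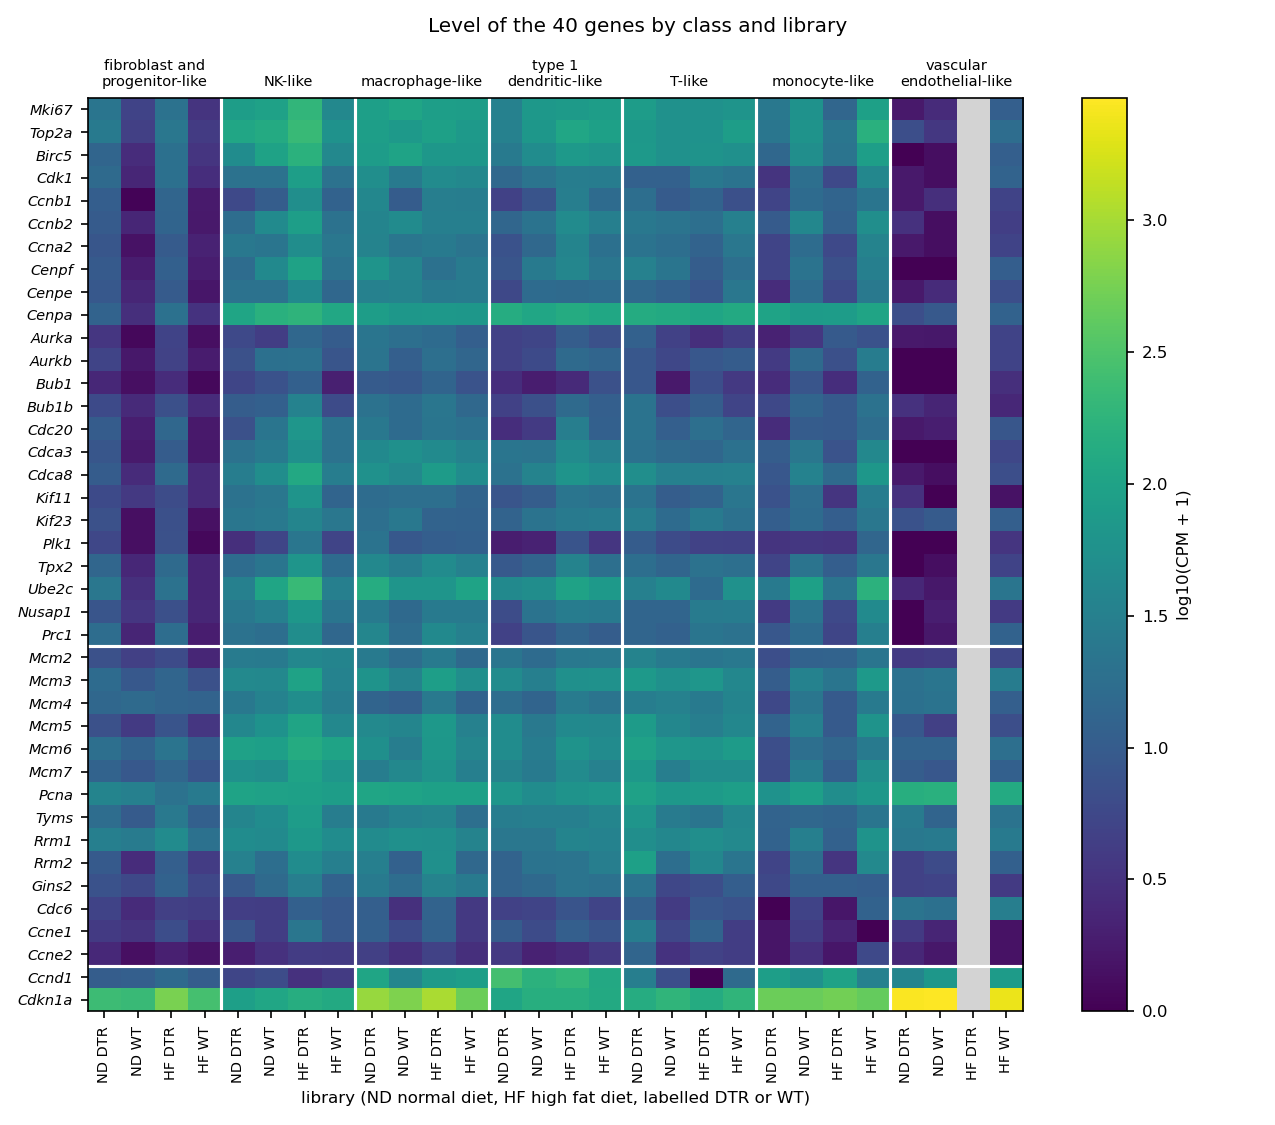
Level of each of the 40 genes in each class and library as log10(CPM + 1), labelled DTR before labelled WT in each diet, with grey for fewer than 50 cells. Mitotic genes are bright in macrophage-like, NK-like and type 1 dendritic-like cells and faint in fibroblast and progenitor-like cells labelled WT, where they sum to 33.6 CPM on normal and 29 CPM on high fat diet, and Cdkn1a is bright in vascular endothelial-like cells.

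The G1 genes were distributed otherwise than the mitotic genes. Among classes with at least 50 cells, Cdkn1a was highest in vascular endothelial-like cells, at 2762 CPM labelled DTR and 2896 CPM labelled WT on normal diet and 2327 CPM labelled WT on high fat diet. In NK-like cells it lay between 89.4 and 142 CPM. In fibroblast and progenitor-like cells it had 583 CPM labelled DTR and 274 CPM labelled WT on high fat diet (1.09, 1.05 to 1.13), and 233 and 219 CPM on normal diet (0.09, 0.01 to 0.17). On high fat diet the inhibitor and the mitotic genes were thus both higher with the label DTR in this class. Macrophage-like cells showed 1041 and 482 CPM of Cdkn1a on high fat diet (1.11, 1.06 to 1.17) and 854 and 613 CPM on normal diet (0.48, 0.35 to 0.60).

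Ccnd1, cyclin D1, was higher in dendritic-like cells than in NK-like cells. Type 1 dendritic-like cells had 267 CPM labelled DTR and 169 CPM labelled WT on normal diet and 197 and 122 CPM on high fat diet. NK-like cells had 9 and 5 UMIs on normal and 2 and 3 UMIs on high fat diet, although up to 21.4% of them were cycling. Macrophage-like cells had 108 CPM labelled DTR and 38.2 CPM labelled WT on normal diet (interval 1.02 to 2.02 on the log2 scale) and 75.9 and 86.6 CPM on high fat diet (-0.19, -0.34 to -0.04).

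Cell cycle genes outside the 40 were read in lists of the same kind. In fibroblast and progenitor-like cells 22 of 34 measured further mitotic genes were at least 2-fold higher with the label DTR on normal diet, beside 8.03% of all genes, and 28 of 35 on high fat diet, beside 18.2%. Hmmr, a spindle protein, had 88 UMIs labelled DTR and 2 labelled WT on normal diet (4.98, 3.09 to 8.05) and 278 and 5 on high fat diet (4.83, 3.59 to 6.46). The summed level of that list had log2 ratios of 0.24 and 0.09, against medians of 2.02 and 2.16. It holds abundant genes such as Tubb5, a tubulin named here after its values were seen, at 322 CPM labelled DTR and 288 CPM labelled WT on high fat diet. Of the further S phase genes 5 of 20 passed 2-fold on normal diet and 7 of 20 on high fat diet, beside the same shares of all genes, led by Pclaf, a PCNA partner, at 2.74 (2.19 to 3.33) on normal and 2.42 (2.09 to 2.76) on high fat diet.

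On high fat diet the fibroblast and progenitor-like cells labelled DTR also held more RNA of Cdkn2b and Cdkn2a, 2 of the 4 genes of the INK4 inhibitors, which block CDK4 and CDK6. Cdkn2b, encoding p15, had 1260 UMIs labelled DTR and 23 labelled WT (4.80, 4.21 to 5.47). Cdkn2a, encoding p16 and ARF, had 496 and 13 UMIs (4.28, 3.50 to 5.20). On normal diet Cdkn2b had 80 and 29 UMIs (0.99, 0.36 to 1.65) and Cdkn2a 26 and 11 (0.76, -0.30 to 1.93). Cdkn2c, encoding p18, was lower on high fat diet at 15.3 CPM labelled DTR and 23.5 CPM labelled WT (-0.62, -0.80 to -0.45), and Cdkn2d, encoding p19, had 22.7 CPM in both (0.00, -0.16 to 0.17). Cdk6, a kinase that they bind, had 46.1 and 12.5 CPM on high fat diet (1.89, 1.70 to 2.08). Of the G1 cyclins and inhibitors 3 of 18 measured were at least 2-fold higher on high fat diet, no more than the 18.2% of all genes, so nothing is read from that count. Gas1, a growth arrest gene, was at least 2-fold lower (-1.02, -1.07 to -0.98), beside 4.52% of all genes in that direction.

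By level, Cdkn2b was about even between mitotic and other cells, and Cdkn2a was higher in mitotic cells. The mitotic cells were 77 against 2625 others, so UMI counts alone place most molecules of either gene outside them. In the library labelled DTR on high fat diet Cdkn2b had 48 UMIs in mitotic and 1210 in other cells, 29.8 against 31.9 CPM (-0.10, -0.55 to 0.32). Cdkn2a had 43 and 448 UMIs, 26.7 against 11.8 CPM (1.17, 0.69 to 1.63). Targets of p53 differed by label as well: 7 of 14 measured were at least 2-fold higher with the label DTR on high fat diet, beside 18.2% of all genes, and 3 of 14 on normal diet, beside 8.03%. Pmaip1 and Bbc3, which encode the death-promoting proteins NOXA and PUMA, had log2 ratios of 2.46 (1.91 to 3.06) and 2.37 (2.10 to 2.66) on high fat diet. In mitotic against other cells of that library the p53 targets had a median log2 ratio of 0.27.

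In NK-like cells on high fat diet 15 of 25 measured further mitotic genes and 10 of 20 further S phase genes were at least 2-fold higher with the label DTR, beside 8.88% of all genes. Racgap1, part of the central spindle, had 78 and 23.4 CPM (1.74, 1.05 to 2.48), and Rfc4, a clamp loader, 57.2 and 15.3 CPM (1.91, 1.06 to 2.84). Btg1, an inhibitor of proliferation, was lower at 649 and 1342 CPM (-1.05, -1.19 to -0.91). In macrophage-like cells on high fat diet 10 of 20 further S phase genes passed that fold, beside 14.3% of all genes, while the 3 of 35 further mitotic genes that did were a smaller share than that of all genes.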

How the data were processed

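Single-cell RNA was captured with 10x Genomics 3′ v3 chemistry, per the labels' protocols. The authors deposited raw UMI counts as 1 matrix of 31053 genes and 22703 barcodes, made with Cell Ranger 3.1.0 on mm10, per the submitters' processing notes. The barcode suffixes were read as the 4 libraries in the order of the aggregation, which no other source states, and the 32 records are 8 runs of each library. Kept were cells with 300 genes or more whose mitochondrial share of UMIs was 10% or less, and those that Scrublet called doublets were removed (0.69% to 1.37% of a library). Classes came from 119 markers, each cell needing a score of 0.25 and a margin of 1.3 times over the next class, a rule set after the data were seen. The members and all lists were chosen with earlier results of these data known. Shares were read after thinning to 2000 UMIs (seed 1) with exact Clopper-Pearson intervals or, where no cell was called, a limit of 3 counts of the total, and ratios with exact binomial intervals, which cover counting error only. A gene was measured with at least 20 UMIs over both libraries and 50 cells in each. CPM are UMIs per 1000000 UMIs of the class. All 40 members could be named, and of each further list up to 5 genes with at least 50 UMIs, largest ratio first. With 1 library a group no test was run. Python 3.11.15, numpy 2.4.6, scipy 1.17.1, pandas 2.3.3, scanpy 1.11.5, leidenalg 0.10.2 and matplotlib 3.10.9 were used, and edgeR 4.0.16 for TMM factors only. The scripts were tested on simulated data. Other cell filters, thinning depths, call limits, scalings, gene minimums, doublets kept and classes from clusters were tried as alternatives, and a stricter marker gate was added after the data were seen.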

Additional observations from a re-analysis of the deposited data

Results flagged for a closer look

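In several classes a comparison pointed one way in one diet or label and the other way in the other. With 1 library a group, none of these differences was tested. In NK-like cells the summed mitotic level had a log2 ratio, labelled DTR over labelled WT, of 1.80 on high fat diet and -0.59 on normal diet, and a log2 ratio, high fat over normal diet, of 1.58 labelled DTR and -0.80 labelled WT. Their share of cycling cells by label on normal diet, and by diet labelled WT, had intervals that spanned both directions.

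In type 1 dendritic-like cells the summed mitotic level, labelled DTR over labelled WT, had a log2 ratio of 0.34 on high fat diet and -0.51 on normal diet. In T-like cells that ratio was -0.27 on high fat diet and 0.40 on normal diet. High fat over normal diet, the T-like cells had a mitotic log2 ratio of -0.38 labelled DTR and 0.29 labelled WT, and an S phase log2 ratio of -0.69 labelled DTR and 0.22 labelled WT. In fibroblast and progenitor-like cells the log2 ratios of high fat over normal diet were 0.19 labelled DTR and -0.21 labelled WT for the mitotic level, and 0.14 labelled DTR and -0.24 labelled WT for the S phase level.

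Cells that met the marker rule of no class were left out of the comparisons. In them 53 of 369 cells, 14.4% (10.9 to 18.4), were cycling in the library labelled DTR on high fat diet, and 24 of 367 cells, 6.54% (4.23 to 9.57), in the library labelled WT.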

How the results depend on the processing

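The 103 results were recomputed under each setting that applied to them, which gave 902 values. Of these, 873 stayed within the limits of the main value (45 of them with the opposite sign). Another 26 moved outside, some across 0 from a value whose limits held 0, and 3 turned a direction whose limits had not held 0. The limits of a share ratio are its counting interval. Those of a list median are the medians of the single-gene interval ends, the width for a typical gene and not for the median. A count of classes has no interval and was judged by a set fold. In all, 60 values changed sign. Of the cycling shares, the macrophage-like log2 ratio of high fat over normal diet labelled WT was 0.46 without thinning, in place of -0.76, and that of NK-like cells labelled DTR was 0.88, in place of 1.94. For T-like cells it was -1.62, in place of 0.82, by label on high fat diet, and -1.56, in place of 0.23, by diet labelled DTR. Thinned to 1000 UMIs, the monocyte-like log2 ratio was -5.25 for labelled DTR over labelled WT on high fat diet and -1.96, in place of 0.64, for high fat over normal diet labelled DTR. With cells scaled to the same total, the normal diet medians of fibroblast and progenitor-like cells were 0.89 for mitotic and 0.23 for S phase genes, and those of mitotic genes in macrophage-like cells were -0.36, in place of 0.36, on normal and 0.74, in place of 0.19, on high fat diet. TMM scaling gave 0.85 for S phase genes of fibroblast and progenitor-like cells and -0.07, in place of 0.19, for mitotic genes of macrophage-like cells on high fat diet. The stricter marker gate, chosen after seeing the data, gave mitotic medians of -0.74 in macrophage-like and -4.52 in monocyte-like cells on normal diet. In cells with both sets of markers it turned the cycling share to 0.12, in place of -3.02, and the mitotic median to 0.10, in place of -1.02, on high fat diet by label, and the S phase median to -0.28, in place of 1.12, by diet labelled WT. The cause of these changes was not tested. No paired analysis was possible because each group is 1 library, and for the same reason no library could be left out. Depth limits the shares of classes under 50 cells and of T-like cells labelled DTR on high fat diet.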
